A study of Homo sapiens with 12 samples.

Results

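The 10 genes described here encode the neuronal intermediate filament proteins (NEFL, NEFM, NEFH, INA and PRPH), the neuronal β-tubulin TUBB3 and the microtubule-associated proteins MAP2, MAPT, MAP1B and DCX. They were chosen by gene symbol, and all 10 were found among the 27514 genes of the deposited table. RNA sequencing was done on 12 samples of IMR32 cells, an established line from a human neuroblastoma in which MYCN, a transcription factor gene, is amplified. All cells were electroporated with siRNA and kept for 72 h in RPMI medium with fetal calf serum before total RNA was extracted. The 4 groups, with 3 samples each, received a control siRNA (siCTR in the labels, siCtrl here), an siRNA against MYCN (siMYCN_2, here siMYCN), an siRNA against HAND2 (siHAND2_3, here siHAND2), or both (siM2+siH2_3, here the combined knockdown). The labels name 1 siRNA per target, so an effect of the target cannot be told apart from an effect of that siRNA. They do not say that the samples came from separate cultures, so the p-values measure the spread between these samples, which may be technical.

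The library depth, estimated from the steps between low values, was 31.6 to 64.2 M reads, and 3 reads corresponded to 0.0468 to 0.0949 CPM (read counts scaled to the library total). MYCN stood at 67.5% of its siCtrl mean in siMYCN, 84.1% in siHAND2 and 47.7% under the combined knockdown. HAND2 stood at 26.0% of its siCtrl mean in siHAND2 and 30.7% under the combined knockdown. In siMYCN, HAND2 was higher than in siCtrl (326 ± 7.50 against 239 ± 15.3 CPM, SD, n = 3). Of 12 sympathoadrenal marker genes, 11 had a mean of at least 1 CPM, whereas TH, the first enzyme of catecholamine synthesis, was at 0.0686 to 2.06 CPM. The list summed to 794 to 852 CPM in siCtrl, 1077 to 1109 in siMYCN, 754 to 797 in siHAND2 and 590 to 910 under the combined knockdown. It includes HAND2, itself an siRNA target, so the sums with siHAND2 follow its knockdown in part. HAND2 alone had means of 239, 326, 62.3 and 73.5 CPM in the same order. Of 13 mesenchymal and Schwann cell markers 5 reached a mean of 1 CPM, and their summed CPM, mostly PDGFRA, was 137 to 150 in siCtrl, 172 to 187 in siMYCN, 70.6 to 85.0 in siHAND2 and 43.6 to 65.5 in the combined knockdown, with PRRX1 not detected. Among markers of other central nervous system neurons, GAD2 was not detected and SLC17A7, a vesicular glutamate transporter, was at 0.819 to 6.19 CPM. Of 9 immune, endothelial and epithelial markers CDH5 alone reached a mean of 1 CPM, CD3E was not detected, and the list summed to 1.05 to 3.80 CPM over all samples. The part of these markers in the results below was not tested. The reads that fell in listed genes made up 65.1% ± 0.736 (SD, n = 3) of the library for siCtrl, 62.4% ± 0.979 in siMYCN, 59.4% ± 2.39 in siHAND2 and 51.4% ± 7.04 under the combined knockdown, where the samples ran from 44.3 to 58.4%. CPM is scaled to all reads, so this share moves the level of every listed gene. The median log2 difference from siCtrl over the 12680 genes tested was 0.006 in siMYCN, −0.14 in siHAND2 and −0.28 under the combined knockdown, and it was 0.014, 0.012 and 0.045 after each sample had been rescaled by its median ratio to the other samples. Results are therefore given as deposited and, where it matters, after this rescaling. Rescaled, MYCN stood at 68.0% of its siCtrl mean in siMYCN, 93.9% in siHAND2 and 61.0% under the combined knockdown. Its log2 difference between the combined knockdown and siMYCN was −0.51 as deposited and −0.16 rescaled. HAND2, rescaled, stood at 29.1% in siHAND2 and 39.2% under the combined knockdown.

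Neurons hold a class of intermediate filaments of their own. The light, medium and heavy neurofilament subunits NEFL, NEFM and NEFH copolymerise with α-internexin (INA) in central axons and with peripherin (PRPH) mainly in peripheral and sympathetic neurons, the lineage from which neuroblastoma arises, and they set the calibre of large axons. Microtubules, built of α- and β-tubulin dimers, carry axonal transport, and their stability is tuned by associated proteins. TUBB3 is the β-tubulin isotype largely restricted to neurons, MAP2 binds microtubules mainly in dendrites and cell bodies, MAPT (tau) mainly in axons, MAP1B in growing axons, and DCX (doublecortin) in migrating and newly differentiating neurons.

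The start regions of 4 of the genes are shown because DCX, TUBB3 and PRPH rose at least 1.86-fold in mean CPM in each knockdown, whereas INA rose by less. MAPT also rose by that much (2.02-fold in siMYCN, 3.08-fold in siHAND2 and 5.38-fold in the combined knockdown). It is not shown because the promoter table holds no entry for it. MYCN and HAND2 belong to the basic helix-loop-helix proteins, a class known to bind E-boxes, the hexamer CANNTG. Each sequence is the 250 bases before a RefSeq transcript start, read 5′ to 3′ on the strand of the gene, with E-boxes in capitals. The sequences come from the RefSeq promoter table for GRCh38.p14 and were placed on GRCh37 by a single exact match. They lie at chr16:89989500-89989749 on the plus strand for TUBB3, chrX:110655421-110655670 on the minus strand for DCX, chr12:49688680-49688929 on the plus strand for PRPH and chr10:105036645-105036894 on the plus strand for INA.
TUBB3: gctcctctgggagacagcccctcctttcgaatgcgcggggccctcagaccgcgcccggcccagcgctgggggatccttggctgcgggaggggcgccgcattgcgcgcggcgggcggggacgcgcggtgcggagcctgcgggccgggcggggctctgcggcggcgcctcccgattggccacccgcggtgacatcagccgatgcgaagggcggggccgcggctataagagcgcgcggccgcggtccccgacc
DCX: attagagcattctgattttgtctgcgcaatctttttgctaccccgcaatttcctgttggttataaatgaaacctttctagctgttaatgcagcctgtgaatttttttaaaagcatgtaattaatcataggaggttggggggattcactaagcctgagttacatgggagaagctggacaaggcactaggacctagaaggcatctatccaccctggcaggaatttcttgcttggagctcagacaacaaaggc
PRPH: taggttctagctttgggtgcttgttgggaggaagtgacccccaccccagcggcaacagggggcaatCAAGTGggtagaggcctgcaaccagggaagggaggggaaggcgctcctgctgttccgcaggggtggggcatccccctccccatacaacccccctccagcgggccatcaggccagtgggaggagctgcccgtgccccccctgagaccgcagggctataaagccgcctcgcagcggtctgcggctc
INA: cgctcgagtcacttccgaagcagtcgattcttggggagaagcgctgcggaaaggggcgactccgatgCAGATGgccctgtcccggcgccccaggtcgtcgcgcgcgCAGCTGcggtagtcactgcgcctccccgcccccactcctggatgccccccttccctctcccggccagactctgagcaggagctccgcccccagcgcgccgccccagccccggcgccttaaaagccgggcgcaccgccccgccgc
The stretches of TUBB3 and DCX held 0 E-boxes. That of PRPH held 1, CAAGTG, which begins 184 bases before the start, and that of INA held 2, CAGATG at 183 bases and CAGCTG at 144 bases before it. Windows were examined for 6 of the 10 genes (DCX, INA, MAP1B, MAP2, PRPH and TUBB3), which have 12 transcript starts in the table. Each window holds 300 bases, from 250 before to 50 after a start, and both strands read alike, as CANNTG covers its own complement. Of the 12 windows 7 held an E-box, against 68.7% of all 35116 windows in the table. Of the windows nearest to the canonical start of each gene 3 of 6 held one, but that of MAP2 lies 155285 bases from the canonical start. The further windows of DCX, at starts 95 and 1046 bases away, held 1 and 3 E-boxes, and the 2 windows of TUBB3 held 0. The hexamer CACGTG was found in 0 of the 12 windows and in 7.26% of all windows, and CATCTG or its complement CAGATG in 4 of the 12 and in 14.7% of all. These matches describe the letters in the windows and say nothing of binding.

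Relative to siCtrl, 7 of these genes (PRPH, INA, TUBB3, MAPT, MAP2, MAP1B and DCX) rose in every knockdown, and NEFH fell in every knockdown. The share of all genes that rose or fell in all 3 knockdowns was not computed, so the shares below hold for each knockdown alone. The INA rises depended on single samples, as given below. The test was limma's moderated linear model on log2(CPM + 1), which understates the change of low genes, and a gene is termed called at a Benjamini-Hochberg adjusted p under 0.05 over all 12680 genes. All 10 genes passed the filter of a mean CPM of at least 1. In siMYCN 7 of the 10 were called higher, against 17.4% of all genes tested, and 1 was called lower, against 16.3%. A fit with the replicate number as a block also called NEFM lower in siMYCN, making 9 of the 10 (38.8% of all genes). In siHAND2 8 were called higher (12.3% of all genes) and 1 lower (30.4%). In the combined knockdown 8 were called higher (17.4%) and 1 lower (50.1%). The 10 genes had a median log2 difference of 0.67 in siMYCN, 0.72 in siHAND2 and 0.86 under the combined knockdown. After rescaling, 7 were higher and 2 lower in siMYCN (25.4% and 22.5% of all genes), 8 and 1 in siHAND2 (25.9% and 24.9%), and 9 and 1 under the combined knockdown (37.7% and 33.0%). The 3 comparisons share the siCtrl samples. As deposited, 31.4% of all genes had every siMYCN sample above every siCtrl sample, 17.8% every siHAND2 sample and 16.7% every combined knockdown sample. For 29.6%, 45.0% and 48.3% of all genes they all lay below siCtrl. Statements below that samples did not overlap siCtrl are to be read against these shares, which were not taken after rescaling. In RNA from whole cultures, fewer cells of a type and less RNA per cell cannot be told apart.

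**Figure D1:**
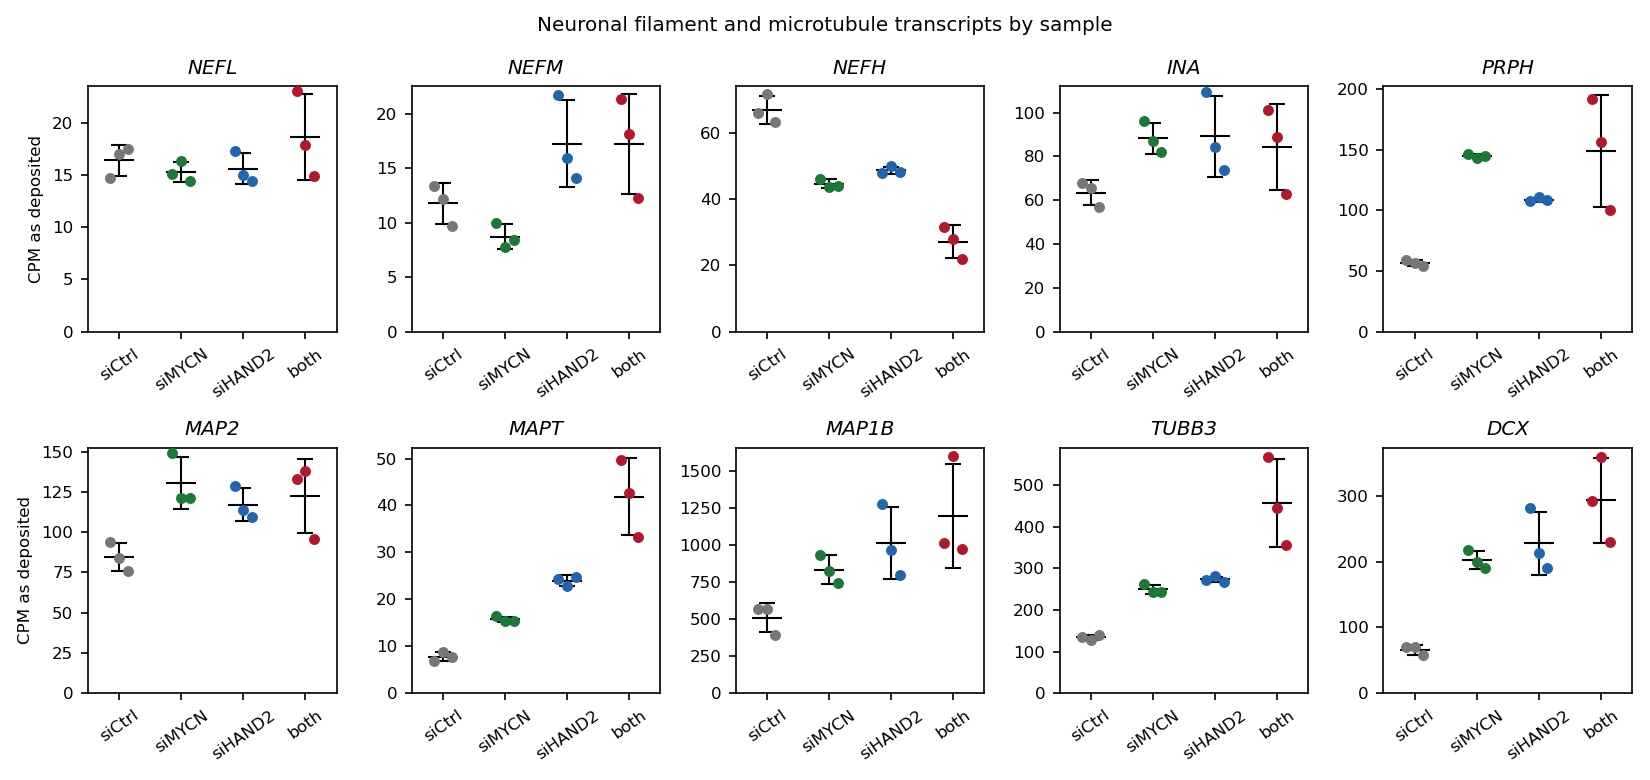
Deposited level of each of the 10 genes in each sample (CPM, linear axes from 0), with 3 points per group in the order of replicates 1 to 3, a bar at the mean and whiskers of 1 SD; "both" is the combined knockdown. MAPT and TUBB3 had siCtrl, siMYCN, siHAND2 and combined knockdown samples in 4 steps that did not overlap, NEFH had its lowest samples in the combined knockdown, and the NEFL groups overlapped.

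NEFH, the heavy neurofilament subunit whose long tail forms the side arms between filaments, fell in each knockdown. The gene lies on chromosome 22 from 29876181 to 29887278 (hg19, plus strand). It had 66.1, 71.7 and 63.5 CPM in the siCtrl samples, 46.2, 43.8 and 43.9 in siMYCN and 47.9, 50.1 and 48.2 in siHAND2. In the combined knockdown it had 31.7, 27.9 and 21.8 CPM. Every knockdown sample thus lay below every siCtrl sample, and the combined knockdown samples lay below all others. The log2 fold change was −0.58 in siMYCN (SE 0.12, adjusted p 5.4e-04), −0.45 in siHAND2 (SE 0.12, adjusted p 0.0035) and −1.29 under the combined knockdown (SE 0.12, adjusted p 6.8e-10), where the mean was 40.4% of that in siCtrl. After rescaling the changes were −0.56, −0.29 and −0.94, all called.

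PRPH, the peripherin gene (chromosome 12, 49688909 to 49692482, plus strand), showed the opposite direction. Its level was 58.9, 56.5 and 54.3 CPM in siCtrl, 146, 143 and 145 in siMYCN and 107, 111 and 108 in siHAND2. In the combined knockdown it was 191, 156 and 99.8 CPM. The third sample thus lay below every siHAND2 sample, and the others lay above those of siMYCN. After rescaling the combined knockdown samples were 193, 181 and 137, all above every siHAND2 and siMYCN sample. All knockdown samples lay above siCtrl. The log2 fold changes were 1.34 in siMYCN, 0.93 in siHAND2 and 1.33 under the combined knockdown (SE 0.15 each, adjusted p 1.9e-07, 1.9e-05 and 2.2e-08). After rescaling they were 1.35, 1.09 and 1.69, all called. PRPH overlaps LOC101927267 on the other strand, which had at most 9.91 CPM, and whether reads were counted by strand is not given in the sources used here.

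The α-internexin gene INA (chromosome 10, 105036920 to 105050109, plus strand) rose by a smaller amount. It had 67.8, 65.5 and 56.9 CPM in siCtrl, 96.0, 86.9 and 82.0 in siMYCN, 110, 84.5 and 73.6 in siHAND2 and 101, 88.7 and 63.0 under the combined knockdown. The single knockdown samples lay above siCtrl, and the third combined knockdown sample lay among the siCtrl samples. After rescaling every combined knockdown sample lay above siCtrl. Log2 fold changes were 0.47 in both single knockdowns (SE 0.15, adjusted p 0.017 in siMYCN and 0.014 in siHAND2) and 0.38 in the combined knockdown (SE 0.15, adjusted p 0.027), or 0.48, 0.63 and 0.74 after rescaling. Each of the 3 calls was lost without siCtrl replicate 3 (adjusted p 0.085, 0.072 and 0.12). That in siMYCN was also lost without siMYCN replicate 1 (0.077), that in siHAND2 without siHAND2 replicate 1 (0.31 on the log2 scale, adjusted p 0.11), and that in the combined knockdown without its replicate 1 (0.24 on the log2 scale, adjusted p 0.18) or 2 (0.097). None of the 3 was called when genes of low level were kept in the fit (adjusted p 0.17, 0.15 and 0.18).

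NEFM, the medium neurofilament subunit (chromosome 8, 24771274 to 24776607, plus strand), differed between the single knockdowns. It had 13.4, 12.2 and 9.69 CPM in siCtrl and 9.95, 7.78 and 8.42 in siMYCN, which overlapped. In siHAND2 it had 21.7, 15.9 and 14.1 CPM, all above siCtrl. In the combined knockdown it had 21.3, 18.1 and 12.2, with the third sample among those of siCtrl as deposited but above them after rescaling. The log2 difference was −0.39 in siMYCN (SE 0.16, adjusted p 0.068), 0.50 in siHAND2 (SE 0.16, adjusted p 0.014) and 0.49 under the combined knockdown (SE 0.16, adjusted p 0.0099, and 0.83 after rescaling). The siMYCN difference was called lower in a fit with the replicate number as a block (adjusted p 0.0057) and after rescaling (−0.38, adjusted p 0.037). The siHAND2 rise was not called without siHAND2 replicate 1 (0.33, adjusted p 0.10) or siCtrl replicate 3 (0.38, adjusted p 0.095), nor the combined rise without combined knockdown replicate 1 (0.33, adjusted p 0.11) or siCtrl replicate 3 (0.37, adjusted p 0.070), and neither was called without the filter on low genes (adjusted p 0.19 and 0.14). The direct comparison of siMYCN with siHAND2 gave −0.89 (SE 0.16, adjusted p 1.2e-04), with every siMYCN sample below every siHAND2 sample. Such a separation held for 15.7% of all genes.

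NEFL, the light subunit on which neurofilaments assemble (chromosome 8, 24808469 to 24814384, minus strand), was not called against siCtrl in any knockdown. Its level was 14.7, 17.0 and 17.5 CPM in siCtrl, 15.1, 16.4 and 14.4 in siMYCN, 17.3, 15.1 and 14.5 in siHAND2 and 23.1, 17.9 and 15.0 under the combined knockdown. These 4 ranges overlap, but after rescaling every combined knockdown sample lay above siCtrl. The log2 differences were −0.09, −0.07 and 0.16 (SE 0.13 each, adjusted p 0.61, 0.70 and 0.28). In the combined knockdown it was called higher after rescaling (0.50, adjusted p 7.9e-05) and without combined knockdown replicate 3 (0.30, adjusted p 0.023).

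The mix of filament transcripts was described by the share of each of the 5 genes in their summed CPM per kb of canonical transcript, a share that does not depend on how the libraries are scaled. Transcripts of PRPH made up 41.0% ± 1.05 (SD, n = 3) of this pool for siCtrl, 63.7% ± 1.29 in siMYCN, 54.9% ± 3.65 in siHAND2 and 65.1% ± 2.21 under the combined knockdown. Those of NEFH made up 23.0% ± 0.987, 9.32% ± 0.0567, 11.7% ± 0.819 and 5.77% ± 0.645 in the same order. In every sample of each knockdown the PRPH share was above, and the NEFH share below, those of all siCtrl samples. The INA share was 25.4% in siCtrl, 21.5% in siMYCN, 24.7% in siHAND2 and 20.7% under the combined knockdown. NEFL went from 5.99% to 3.38%, 3.95% and 4.19%, and NEFM from 4.67% to 2.11%, 4.75% and 4.18%. The summed pool itself was 76.8 ± 3.94 CPM per kb in siCtrl, 126 ± 3.45 in siMYCN, 110 ± 6.89 in siHAND2 and 126 ± 35.5 under the combined knockdown. Unlike the shares, this sum depends on the scaling. After rescaling it was 70.0 ± 2.99, 116 ± 1.89, 112 ± 3.88 and 145 ± 20.6 in the same order.

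**Figure D2:**
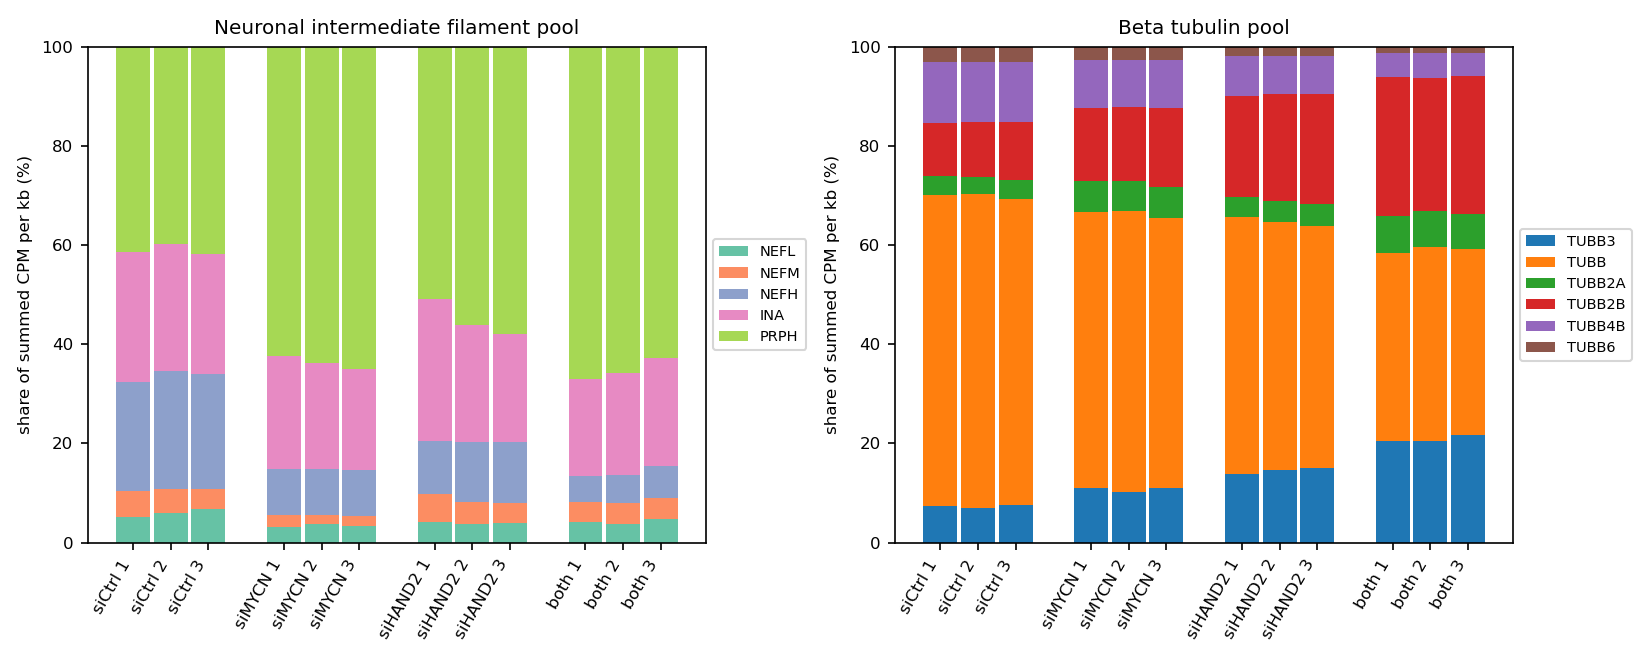
Share of each gene in the summed CPM per kb of the 5 neuronal filament genes (left) and of the β-tubulin genes (right) in each of the 12 samples, as stacked bars that add to 100%; "both" is the combined knockdown. PRPH grew from 41.0% to 65.1% and NEFH shrank from 23.0% to 5.77% of the filament pool between siCtrl and the combined knockdown, and TUBB3 grew from 7.34% to 20.9% of the β-tubulin pool, of which the 6 genes with visible shares are drawn.

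TUBB3, the neuronal β-tubulin (chromosome 16, 89988417 to 90002506, plus strand), rose in each knockdown and rose most in the combined one. It had 135, 127 and 139 CPM in siCtrl, 261, 243 and 244 in siMYCN, 271, 281 and 268 in siHAND2 and 569, 444 and 357 under the combined knockdown. No sample of one group overlapped those of another. Of all genes, 15.7% lay wholly lower in siMYCN than in siHAND2. The combined knockdown lay wholly above siMYCN for 9.47% of all genes and above siHAND2 for 9.60%. The log2 fold changes were 0.89 (SE 0.13, adjusted p 9.1e-06), 1.03 (SE 0.13, adjusted p 7.1e-07) and 1.74 (SE 0.13, adjusted p 1.5e-11), and the combined mean was 3.41-fold that of siCtrl. Although the single knockdowns did not overlap, their difference was small and not called (siMYCN against siHAND2 −0.13, adjusted p 0.45). It was called after rescaling (−0.28, adjusted p 0.0027).

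Within the 9 β-tubulin genes TUBB3 made up 7.34% ± 0.317 (SD, n = 3) of the CPM per kb for siCtrl, 10.8% ± 0.426 in siMYCN, 14.5% ± 0.656 in siHAND2 and 20.9% ± 0.656 under the combined knockdown. TUBB2B, an isotype abundant in developing neurons, went from 11.1% to 15.2%, 21.4% and 27.6%. The widely expressed TUBB made up 62.6% of the pool in siCtrl and 55.6%, 50.3% and 38.2% in the knockdowns. The share of TUBB4B went from 12.2% to 9.67%, 7.84% and 4.82%, and that of TUBB2A from 3.70% to 6.15%, 4.16% and 7.22%. Tubulin genes are near-identical over long stretches, so the split of reads among them is uncertain.

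MAPT, the gene of the axonal protein tau (chromosome 17, 43971748 to 44105700, plus strand), had the largest change of the 10 genes in the combined knockdown. The siCtrl samples had 6.77, 8.81 and 7.76 CPM, those of siMYCN 16.3, 15.4 and 15.4, and those of siHAND2 24.4, 22.7 and 24.8. The combined knockdown samples had 49.7, 42.7 and 33.2 CPM, 5.38-fold the siCtrl mean. The groups did not overlap and stood in the order siCtrl, siMYCN, siHAND2 and combined knockdown. The shares of all genes for each such separation are those given for TUBB3 and, against siCtrl, for the 10 genes. Log2 fold changes against siCtrl were 0.94 (SE 0.13, adjusted p 3.1e-06), 1.51 (SE 0.13, adjusted p 5.9e-10) and 2.28 (SE 0.13, adjusted p 6.2e-14). Each step between neighbours in that order was called, with a log2 difference of −0.58 for siMYCN against siHAND2 (adjusted p 8.2e-04) and 0.76 for the combined knockdown against siHAND2 (adjusted p 3.6e-05). MAPT overlaps 2 listed transcripts with reads on its own strand, MAPT-IT1 (0.0827 to 2.12 CPM) and STH (at most 0.130 CPM), and MAPT-AS1 on the other (at most 0.146 CPM).

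MAP2, the dendritic microtubule-associated protein (chromosome 2, 210288771 to 210598835, plus strand), rose in all 3 knockdowns. Its level was 93.8, 83.8 and 76.1 CPM in siCtrl, 149, 121 and 121 in siMYCN, 129, 114 and 109 in siHAND2 and 133, 138 and 96.0 under the combined knockdown. All knockdown samples lay above siCtrl and overlapped one another. After rescaling the combined knockdown samples lay above those of siHAND2. The log2 fold changes were 0.62 (SE 0.13, adjusted p 8.9e-04), 0.47 (SE 0.13, adjusted p 0.0067) and 0.52 (SE 0.13, adjusted p 0.0016), and the last was 0.87 after rescaling. The siHAND2 rise was not called without the filter on low genes (adjusted p 0.072). MAPT thus took a growing share of the CPM per kb of MAP2 and MAPT together, 11.6% ± 2.03 (SD, n = 3) for siCtrl, 14.6% ± 1.05 in siMYCN, 22.5% ± 1.66 in siHAND2 and 32.6% ± 2.09 under the combined knockdown.

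MAP1B, a microtubule-associated protein of growing axons (chromosome 5, 71403095 to 71505398, plus strand), rose in each knockdown with a wide spread between samples. Its samples stood at 567, 568 and 393 CPM in siCtrl, 933, 822 and 740 in siMYCN, 1277, 967 and 797 in siHAND2 and 1012, 1595 and 971 under the combined knockdown. All knockdown samples lay above siCtrl. It rose by 0.72 in siMYCN (SE 0.18, adjusted p 0.0028), 0.99 in siHAND2 (SE 0.18, adjusted p 8.2e-05) and 1.21 under the combined knockdown (SE 0.18, adjusted p 1.7e-06) on the log2 scale. The siMYCN rise was not called when genes of low level were kept in the fit (adjusted p 0.12).

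DCX, doublecortin (chromosome X, 110537007 to 110655461, minus strand), had the largest rise of the 10 genes in both single knockdowns. It had 70.8, 69.9 and 57.4 CPM in siCtrl, 217, 200 and 191 in siMYCN, 282, 213 and 190 in siHAND2 and 292, 359 and 230 under the combined knockdown. The lowest knockdown sample, at 190 CPM, was well above the highest siCtrl sample, at 70.8 CPM. The siHAND2 samples overlapped those of both other knockdowns. After rescaling the siHAND2 samples lay above those of siMYCN and below those of the combined knockdown. The log2 fold changes were 1.61 in siMYCN, 1.76 in siHAND2 and 2.12 under the combined knockdown (SE 0.15 each, adjusted p 1.1e-08, 8.7e-10 and 4.8e-12). The difference between the single knockdowns was −0.15 (SE 0.15, adjusted p 0.45).

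**Figure D3:**
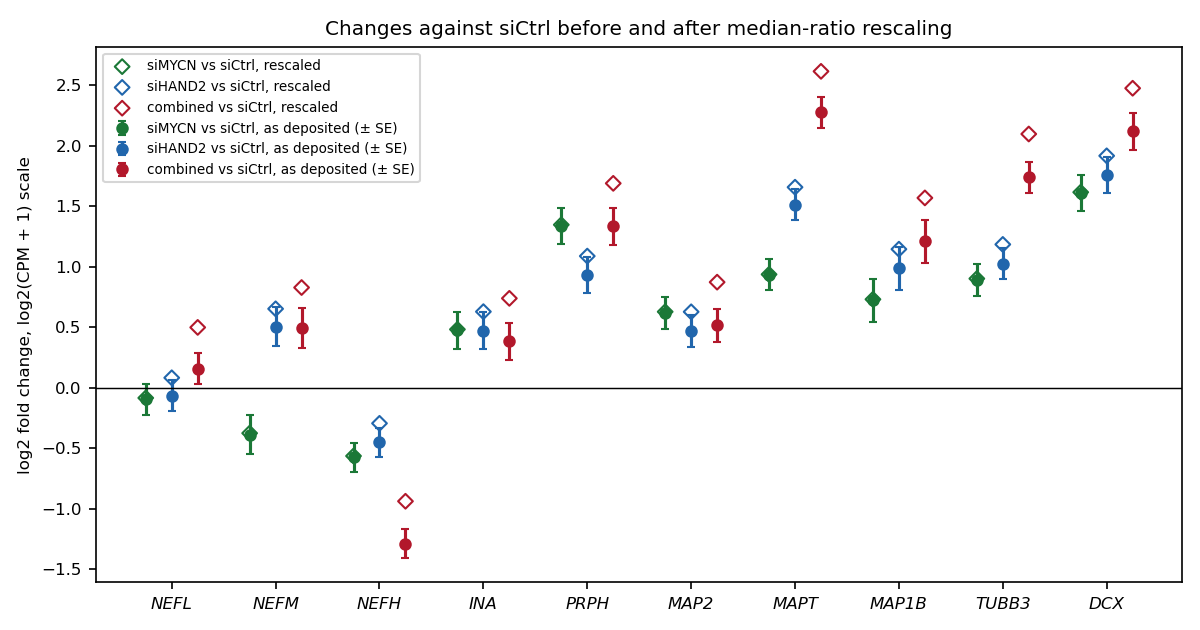
Log2 fold change of each of the 10 genes against siCtrl on the log2(CPM + 1) scale, as deposited (filled circles, whiskers of 1 SE) and after median-ratio rescaling (open diamonds), for siMYCN (green), siHAND2 (blue) and the combined knockdown (red). NEFH lies below 0 in all 3 knockdowns (−0.58, −0.45 and −1.29 as deposited), MAPT reaches 2.28 and DCX 2.12 in the combined knockdown, and rescaling moves the combined knockdown values upward.

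Levels of different genes can be set side by side only per length. In siCtrl the CPM per kb of canonical transcript was highest for TUBB3 (78.5 ± 3.59, SD, n = 3), followed by MAP1B (43.2 ± 8.56), PRPH (31.4 ± 1.27), INA (19.5 ± 1.77), NEFH (17.7 ± 1.11), MAP2 (8.76 ± 0.918), DCX (7.27 ± 0.822), NEFL (4.58 ± 0.415), NEFM (3.60 ± 0.577) and MAPT (1.14 ± 0.149). In the combined knockdown TUBB3 was again highest (268 ± 62.4), while DCX (32.3 ± 7.10) had moved ahead of INA (25.9 ± 6.01), and MAPT (6.15 ± 1.22) stood beside NEFM (5.27 ± 1.41) and NEFL (5.21 ± 1.15), within their spread. NEFH (7.15 ± 1.31 CPM per kb) had gone from the fifth to the seventh place.

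The combined knockdown was next compared with each single knockdown. These comparisons do not isolate the second target, as the first target differed too. MYCN was lower in the combined knockdown than in siMYCN by the same test (−0.51, adjusted p 7.0e-04, and −0.16, adjusted p 0.054, after rescaling). HAND2 stood at 0.23 against siHAND2 (adjusted p 0.13) and at 0.43 after rescaling (adjusted p 0.0016). Against siMYCN 5 of the 10 genes were called higher (8.92% of all genes tested) and 1 lower (50.0%), with a median of 0.37 against −0.28 for all genes. MAPT was higher by 1.34, NEFM by 0.88, TUBB3 by 0.85, DCX by 0.51 and MAP1B by 0.49 on the log2 scale (adjusted p 1.9e-09, 6.5e-05, 6.7e-06, 0.0053 and 0.022), and NEFH was lower (−0.71, adjusted p 1.9e-05, and −0.37 after rescaling). Without combined knockdown replicate 2 the DCX and MAP1B differences were 0.35 and 0.26 (adjusted p 0.063 and 0.22), and without siMYCN replicate 3 that of MAP1B was 0.41 (adjusted p 0.088). Without the filter on low genes neither was called (adjusted p 0.082 and 0.23). PRPH stood at −0.01 (adjusted p 0.98) but was called higher after rescaling (0.34, adjusted p 0.0064). On the rescaled values 8 genes were higher and 1 was lower by the same test (30.0% and 26.6% of all genes).

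Against siHAND2 the combined knockdown had 3 of the 10 genes called higher (8.75% of all genes) and 1 lower (31.5%). MAPT was higher by 0.76, TUBB3 by 0.71 and PRPH by 0.40 on the log2 scale (adjusted p 3.6e-05, 1.2e-04 and 0.035), and NEFH was lower (−0.84, adjusted p 6.1e-06). The PRPH call was lost when a siHAND2 or combined knockdown sample was left out, in 5 of 6 cases, and its difference was 0.20 without combined knockdown replicate 1 (adjusted p 0.21). It was also lost without the filter on low genes (adjusted p 0.23). DCX stood at 0.36 (adjusted p 0.058) and was called after rescaling (0.56, adjusted p 0.0029). On the rescaled values 6 genes were higher and 1 was lower by the same test (26.1% and 23.6% of all genes).

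Between the single knockdowns PRPH was higher in siMYCN by 0.41 (adjusted p 0.037), and MAPT and NEFM were lower in siMYCN (−0.58 and −0.89, adjusted p 8.2e-04 and 1.2e-04). This is 1 of 10 genes higher against 26.1% of all genes, and 2 lower against 8.98%. A fit with the replicate number as a block also called 3 of the 10 (40.7% of all genes, 29.8% higher and 10.9% lower). The PRPH samples did not overlap, with those of siMYCN higher, as held for 44.9% of all genes. The PRPH call was lost in each of the 6 fits without a sample of these groups, with differences of 0.40 to 0.42 (adjusted p 0.067 to 0.088). It was also lost without the filter on low genes (adjusted p 0.24). After rescaling the PRPH difference was 0.26 (adjusted p 0.036). On the rescaled values 1 gene was higher and 4 were lower by the same test (22.4% and 22.2% of all genes), the added ones being NEFH (−0.27, adjusted p 0.0015) and TUBB3 (−0.28, adjusted p 0.0027).

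The change in the combined knockdown was held against the summed single changes on the log2 scale, and the difference, the interaction term, was tested. It was called for 2 of the 10 genes, against 4.01% of all genes tested, and after rescaling for 3 (6.14%). Of all genes 0.355% were called with a positive and 3.65% with a negative term (1.67% and 4.47% after rescaling). The median term over all genes was −0.18 as deposited and −0.009 after rescaling. For DCX the single changes summed to 3.37 and the combined change was 2.12, an interaction of −1.25 (SE 0.21, adjusted p 9.3e-04). For PRPH the sum was 2.27 and the combined change 1.33, an interaction of −0.94 (SE 0.21, adjusted p 0.011). With rescaling these were −1.06 and −0.75, still called, and NEFL was added (0.50, adjusted p 0.021). Neither of the 2 was called when genes of low level were kept in the fit (adjusted p 0.12 for DCX and 0.26 for PRPH). For MAPT (sum 2.45, combined 2.28) and TUBB3 (sum 1.92, combined 1.74) the interactions were −0.17 and −0.18, close to the SE of 0.18 and 0.19 (adjusted p 0.57 for each). These were near the median over all genes, and after rescaling they were 0.02 and 0.01. NEFH had a sum of −1.03 and a combined change of −1.29 (interaction −0.26, SE 0.17, adjusted p 0.35, and −0.08 after rescaling).

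**Figure D4:**
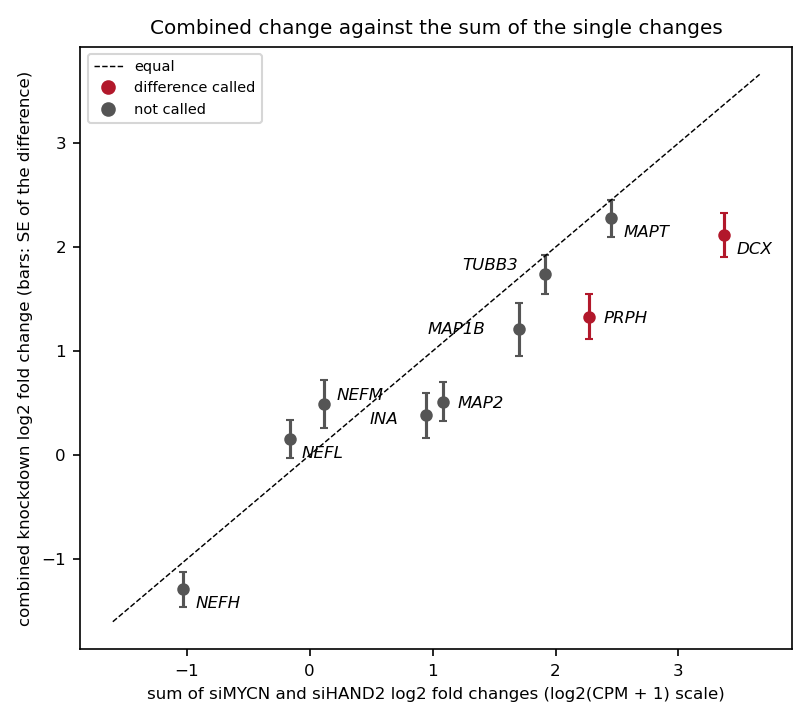
Log2 fold change of each of the 10 genes in the combined knockdown (vertical axis) against the sum of its changes in siMYCN and siHAND2 (horizontal axis), on the log2(CPM + 1) scale as deposited, with whiskers of 1 SE of the difference and a dashed line where both are equal. DCX (3.37 against 2.12) and PRPH (2.27 against 1.33), drawn in red, lie below the line with a called difference, and MAPT and TUBB3 lie within about 1 SE of it.

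Other cytoskeletal genes were taken from 7 lists written by function, and their counts are for the combined knockdown against siCtrl as deposited unless stated, to be read against the 17.4% of all genes called higher, the 50.1% called lower and the median of −0.28 given above (37.7%, 33.0% and 0.045 after rescaling). Counts for the single knockdowns are to be read against 17.4% higher and 16.3% lower in siMYCN (25.4% and 22.5% after rescaling) and 12.3% and 30.4% in siHAND2 (25.9% and 24.9%). Of 15 tubulin isotypes other than TUBB3 that were tested, 5 were higher and 6 lower (median −0.20), and 6 and 5 after rescaling (median 0.13). TUBA1A, the main α-tubulin of neurons, rose from 844 ± 70.7 to 2990 ± 738 CPM (log2 fold change 1.80, adjusted p 2.1e-11), and TUBB2B and TUBB2A rose by 1.54 and 1.19. TUBA1B, a widely expressed α-tubulin, fell from 1947 ± 72.9 to 741 ± 182 CPM (−1.42, adjusted p 1.3e-09). The γ-tubulin TUBG1, which nucleates microtubules at centrosomes, changed by −1.24 and TUBB4B by −1.09. In siMYCN TUBA1A had already risen by 1.47 while TUBA1B stood at 0.00 (adjusted p 0.99). In siMYCN 4 of these tubulins were higher and 1 lower (4 and 3 after rescaling), and in siHAND2 2 and 5 (5 and 5).

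Of 7 other intermediate filament genes tested, 1 was higher and 6 lower (median −1.20), and 1 and 5 after rescaling (median −0.85). NES, nestin, a filament of neural progenitors, fell from 222 ± 30.9 to 44.8 ± 14.2 CPM (−2.32, adjusted p 3.8e-12), and VIM, vimentin, fell from 237 ± 11.3 to 87.6 ± 27.1 CPM (−1.48, adjusted p 1.0e-08). Both also fell in siHAND2 (−1.27 and −0.98) and were not called in siMYCN (−0.16 and −0.22, adjusted p 0.47 and 0.31). The lamin gene LMNB1 fell by 1.35, whereas LMNA rose by 0.55. In siMYCN 1 gene of this list was called higher and 0 lower (1 and 1 after rescaling), and in siHAND2 0 higher and 4 lower (the same counts after rescaling).

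Among 42 other microtubule-associated and microtubule end proteins 20 were higher and 9 lower (median 0.22), and 30 and 8 after rescaling (median 0.57). MAP6, which makes microtubules resist cold, rose from 17.1 ± 1.01 to 73.7 ± 6.25 CPM (2.04, adjusted p 2.3e-14). DPYSL3, a collapsin response mediator, rose by 1.92 and MAP1LC3B, the autophagosome protein LC3B, by 1.78. MAP7D3, EML4 and the dynein regulator NDE1 fell by 1.17, 1.15 and 1.03. In siMYCN 22 genes of this list were higher and 3 lower (29 and 5 after rescaling), and in siHAND2 17 and 8 (29 and 6).

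Of 31 genes in the list of axonal transport motors 15 were higher and 6 lower (median 0.28), and 25 and 5 after rescaling (median 0.63). The list also holds KIF2C and the related KIF2A (−0.51), which are not transport motors and were both called lower as deposited. KIF5A, a neuronal kinesin heavy chain, rose from 8.99 ± 0.275 to 53.2 ± 8.54 CPM (2.43, adjusted p 7.2e-15), and KIF3C and KIF5C rose by 1.23 and 1.00. KIF1C fell to 3.85 ± 0.491 CPM (−2.12, adjusted p 2.3e-14), KIF2C, a mitotic microtubule depolymerase, changed by −1.72, and KIF21A by −0.90. In siMYCN 15 were higher and 2 lower (20 and 2 after rescaling), and in siHAND2 10 and 6 (20 and 4). Of 13 cytolinkers and filament turnover genes 8 were higher and 2 lower (median 0.45), and 11 and 2 after rescaling (median 0.81). ANK2, an ankyrin that ties membrane proteins to the spectrin skeleton, rose by 1.99, DST (dystonin) by 1.36 and the ubiquitin ligase TRIM2, which is known to act on NEFL, by 1.29. The small heat shock protein HSPB1 fell by 1.14 and BAG3 by 0.77. In siMYCN 8 of this list were higher and 0 lower (8 and 0 after rescaling), and in siHAND2 7 and 2 (9 and 2).

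The enzymes that act on tau, neurofilaments and tubulin were counted in separate lists. Of 22 kinases and phosphatases 9 were higher and 4 lower (median 0.12), and 17 and 2 after rescaling (median 0.46). TTBK1, a tau kinase, rose from 3.87 ± 0.837 to 19.1 ± 2.18 CPM (2.06, adjusted p 4.7e-13), and the phosphatase subunit PPP2R5B rose by 2.30 and the kinase BRSK1 by 1.08. PPP2R2A and CAMK2D fell by 0.80 and 0.72, and PPP2CA stood at −0.42 as deposited (adjusted p 0.0054) and at −0.06 after rescaling (adjusted p 0.35). In siMYCN and in siHAND2 10 were higher and 1 lower (13 and 1 and 12 and 1 after rescaling). Of 24 tubulin folding and modification genes 8 were higher and 8 lower (median −0.15), and 13 and 7 after rescaling (median 0.19). The tubulin acetyltransferase ATAT1 rose by 0.80, SVBP, partner of the vasohibin carboxypeptidases, by 0.79 and TTLL7 by 0.66. TTLL12, TTLL4 and the folding cofactor TBCD changed by −1.55, −0.90 and −0.70. In siMYCN 9 of these were higher and 2 lower (12 and 3 after rescaling), and in siHAND2 3 and 4 (8 and 4).

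**Figure D5:**
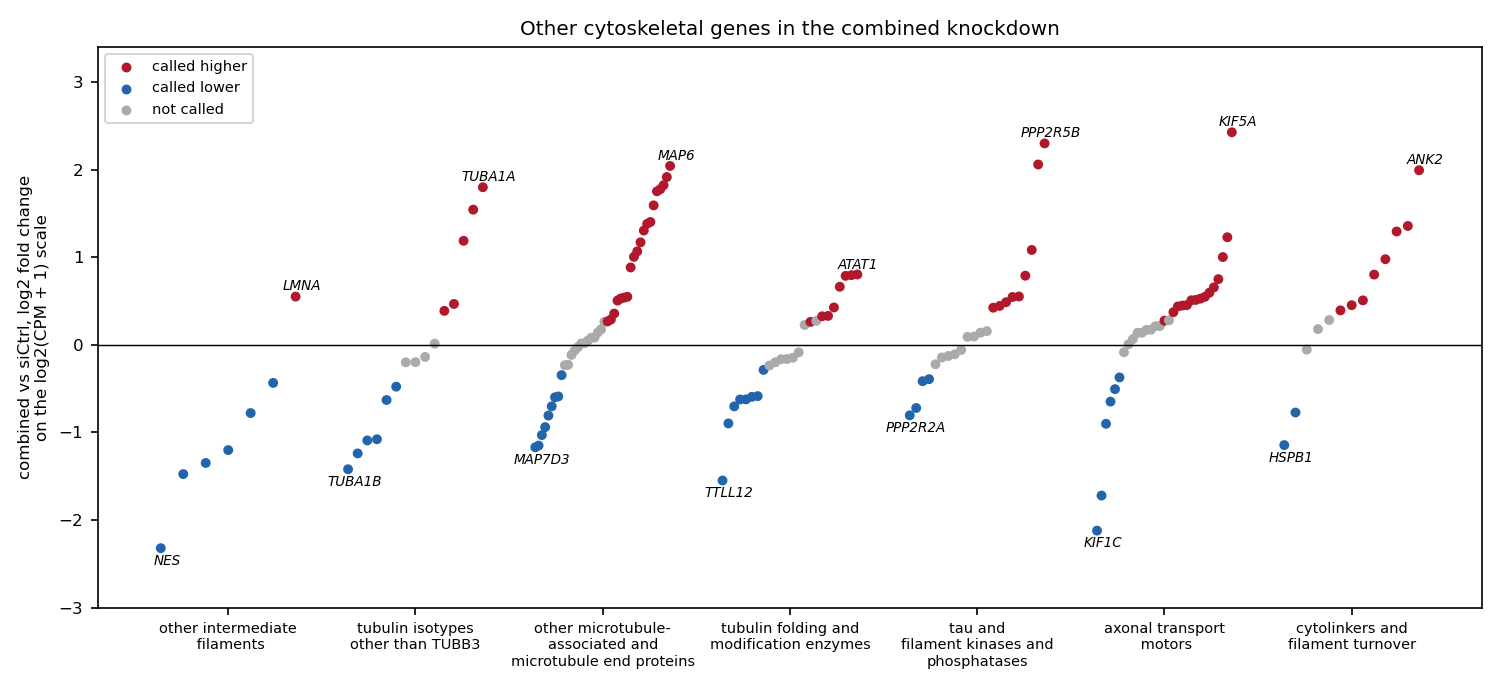
Log2 fold change of every tested gene of the 7 cytoskeletal lists in the combined knockdown against siCtrl, on the log2(CPM + 1) scale as deposited, with 1 point per gene sorted within its list and coloured red where called higher, blue where called lower and grey otherwise. The extremes among named genes are marked, from NES (−2.32) and KIF1C (−2.12) to KIF5A (2.43) and PPP2R5B (2.30).

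The gene most like each of the 9 that were called in a comparison as deposited (all but NEFL, for which none was sought) was taken among 10192 genes, by Pearson's r of the rescaled log2 values over the 12 samples. These correlations describe 4 groups of samples that share their treatment, so they carry no p. TUBB3 was most like TUBB2B (r = 0.997), with which it may share reads. MAPT was most like GAP43, the growth cone protein (r = 0.995), then RPRM (0.995) and LRRC55 (0.994). PRPH was most like SVOP, a synaptic vesicle protein (r = 0.999), and NEFH most like PIEZO1 (0.993), NUFIP1 (0.991) and COA7 (0.991). For DCX it was ATP6V0A1 (0.992), for MAP1B RICTOR (0.990), for INA OCRL (0.986), for MAP2 TCP11L1 (0.985) and for NEFM FOXN2 (0.961). Among the 10 genes themselves MAPT and TUBB3 were closest (r = 0.984), followed by MAP2 and DCX (0.971), and NEFH ran opposite to TUBB3 (−0.90).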

How the data were processed

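RNA sequencing of 12 samples was used, grouped by their titles. The authors deposited a CPM table (read counts scaled to the library total, with a constant of 0.0001 added to each value). Reads were aligned with STAR 2.5.1 to hg19 (GRCh37) and Partek was used, per the submitters' processing notes. How reads were counted, with which annotation, and whether strand or a filter was used are not given in the sources used here. Divided by the worth of 1 read, 88.5 to 90.1% of values below 20 reads came out whole (within 0.05 of a read), under the 95% required, so no count test was run. The depths of 31.6 to 64.2 M reads rest on this estimate, and 3 reads as a floor cover counting error only.

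The analysis used log2(CPM + 1) of 12680 genes whose mean CPM reached 1, and limma 3.58.1 in R 4.3.3 (lmFit and eBayes, the latter with trend, on all 4 groups with 8 residual degrees of freedom). Tests were two-sided with Benjamini-Hochberg adjustment over all genes tested, and the code was tested on simulated data. The median-ratio rescaling used 10192 genes whose mean CPM reached 5. Other settings were a pseudocount of 0.1, a filter at a mean CPM of 5, none at all, rescaling to the sum over listed genes, only the compared groups, a replicate block, the block with rescaling, no trend, and each replicate left out. Deviations of same-numbered samples from their group means correlated above 0.1 in all 3 pairs between siCtrl and siMYCN (mean 0.298) and between siMYCN and siHAND2 (mean 0.261), so the numbers were taken to pair those samples. In the other group pairs they did not, nor were they taken to pair samples in the interaction, which includes the combined knockdown. The sample descriptions also carry a running number that keeps the samples of each replicate number together over all 4 groups. The labels do not say what it marks, so these correlations cannot settle the pairing. The block result for the interaction is given with the other settings at the end. The reported fit holds no block, and for the paired comparisons the block result is given beside it.

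Per length, CPM was divided by the length of the canonical transcript in GENCODE release 44 on GRCh37. The 10 genes and the lists were chosen with earlier results of these data known. From each list the 3 largest called rises and falls in the combined knockdown are named where the mean CPM reached 5, and, for each of the 10 genes that was called in a comparison, the most alike gene (3 for the largest rise and fall). Of the markers of other central nervous system neurons, 1 gene and the summed level are not reported here.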

Additional observations from a re-analysis of the deposited data

Results flagged for a closer look

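For 2 of the 10 genes the change after HAND2 knockdown depended on whether MYCN was knocked down too, by limma's test of the interaction term over all genes, of which 4.01% were called (0.355% positive and 3.65% negative). DCX had an interaction of −1.25 (SE 0.21, adjusted p 9.3e-04), with mean levels of 66.0 CPM for siCtrl, 203 in siMYCN, 228 in siHAND2 and 293 under the combined knockdown. PRPH had an interaction of −0.94 (SE 0.21, adjusted p 0.011), with mean levels of 56.6, 145, 109 and 149 CPM in the same order. In both genes the knockdown of HAND2 was followed by a smaller difference where MYCN was also knocked down. Neither interaction was called when genes of low level were kept in the fit (adjusted p 0.12 for DCX and 0.26 for PRPH).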

How the results depend on the processing

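Of 70 values (10 genes in 7 comparisons), 41 were called, 28 of them under every setting run, and of the 29 others 11 were uncalled under every setting. Sign changes of values called under either setting were all in the combined knockdown against siMYCN: PRPH (−0.01) was 0.34 after median-ratio rescaling with or without the replicate block, 0.28 after rescaling to the listed genes and from −0.21 to 0.26 over the fits that left out a replicate, MAP2 (−0.10) was 0.24 after median-ratio rescaling with or without the block, and INA (−0.09) was 0.26 with both rescaling and block. A further 36 uncalled values changed sign and stayed uncalled. The number of the 10 genes called against siMYCN in the combined knockdown went from 6 to 10 with the block and rescaling, where 31.6% of all genes were higher and 27.6% lower, against 8.92% and 50% as deposited. Against siHAND2 it went from 4 (40.3% of all genes) to 7 after either rescaling (49.7% by median ratio, 49.5% to the listed genes) and with block and rescaling (52.8%). Between the single knockdowns it went from 3 (35% of all genes) to 5 after either rescaling (44.5% and 45.5%) and to 6 with block and rescaling (47.9%). The interaction was called by limma for 4 of the 10 genes with the replicate block (10.1% of all genes, against 4.01% as reported), where INA and MAP2 were added, for 5 with block and rescaling (9.95%), for 0 without a filter on low values (0.32%; 3 of the 10 at an unadjusted p under 0.05), and for 2 to 6 when a replicate was left out, with 6 without replicate 1 of the combined knockdown, where 35% of all genes were called. The cause of these shifts was not tested. Without a filter 13 of the 41 calls were lost. The block also called DCX for combined against siHAND2 (adjusted p 0.010) and NEFM for siMYCN against siCtrl (adjusted p 0.0057), and it ended no call of the 10 genes. Same-numbered samples correlated at 0.222 (siCtrl and siHAND2), 0.133 (siCtrl and the combined knockdown), 0.071 (siMYCN and the combined knockdown) and 0.025 (siHAND2 and the combined knockdown) on average. A pseudocount of 0.1, a mean CPM of at least 5 and no trend changed no call. Of 40 group levels, 11 moved by more than 1 SD after rescaling. Near the floor of 3 reads depth limits comparison, and every one of the 10 genes stood at 6.77 CPM or more in all samples.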
